A study of Mus musculus with 7 samples.

Results

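Red blood cells keep their shape through a protein lattice under the membrane, in which spectrin filaments are tied to the lipid bilayer by ankyrin and by proteins that span it. Its genes are switched on late in red cell development, in the bone marrow, and a few of them also have forms in skeletal muscle or brain. The 8 genes described here are Slc4a1, Epb42, Rhag, Rhd, Ank1, Sptb, Add2 and Ermap. They were chosen as a list of named genes, and all 8 were found among the 56854 gene identifiers that every library shares. All 8 passed the filter on low counts that left 17791 tested genes.

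Poly(A) RNA was sequenced from the dissected shoulder joints of 7 mice, each giving 1 library. All mice had the supraspinatus tendon of the left shoulder repaired and were sampled 2 weeks later, so no group is unoperated. The wild-type group had 3 mice. The Tnc-/- group had 4 mice with a deletion of Tenascin C, an extracellular matrix glycoprotein; the promoter or cell type of the deletion, the strain and the age are not given in the sources used here. A whole joint holds bone, marrow, muscle, tendon and blood, and in such a sample fewer cells of a type and less RNA per cell cannot be told apart.

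Libraries held 13464057 to 18503833 gene counts in wild type and 19250322 to 28191101 in Tnc-/-. Reads of the 2 genotypes were counted in separate runs, as their files list different sets of identifiers, so a difference between genotypes and one between runs cannot be told apart here. Tnc itself lay between 292 and 437 CPM (counts per M reads counted to genes, M for mega, on library sizes scaled by edgeR's TMM method) in wild type and between 33.4 and 55.0 CPM in Tnc-/-. Wild-type libraries 2 and 3 stood apart: 1791 receptor genes of smell and pheromone sensing summed to 1302 and 920.3 CPM there, against 85.6 CPM in wild-type library 1 and 36.0 to 43.5 CPM in Tnc-/-. Pearson correlations of log2 CPM across genes were 0.895 to 0.898 between wild-type library 1 and the Tnc-/- libraries. They were 0.618 to 0.687 for wild-type libraries 2 and 3 against Tnc-/- (genes are not independent replicates).

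Sequence before the transcription start was available for 6 of the 8 genes, from RefSeq on build GRCm38.p6; it was not used here for Ank1 and Slc4a1. The 250 bases before each start were searched on both strands for GATAAG, a form of the site of the erythroid factor Gata1, and for CACCC, the core of sites of Klf1-type factors; the motifs overlap each other in none of the 6 windows held here. GATAAG was in 3 of the 6 windows, those of Epb42, Rhag and Rhd, and in 6.55% of all 32851 promoter windows. Epb42 and Rhag are the 2 genes that were not called between genotypes, and of the 4 called genes with a window (Sptb, Rhd, Ermap and Add2) Rhd alone held it. CACCC was in 5 of the 6, all but Epb42, and in 52% of all windows. Rhd and Rhag held both, as did 2.98% of all windows. A match is a run of letters and not a shown binding site. The 3 stretches with GATAAG, whose letters (or their reverse complement CTTATC) are in capitals, are these.
Epb42, chr2:121037087-121037116, minus strand: agtctctatttcCTTATCtcgttcaaacag
Rhag, chr17:40811105-40811134, plus strand: aagtcctctgctCTTATCaacactatacag
Rhd, chr4:134864482-134864511, plus strand: ccggcagcctgaGATAAGacctttggcggg
The site began 227 bases before the start in Epb42, 32 in Rhag and 42 in Rhd. For the 250 bases before the Rhd start, capitals mark both motifs, CACCC in its reverse complement GGGTG.
Rhd, chr4:134864286-134864535, plus strand: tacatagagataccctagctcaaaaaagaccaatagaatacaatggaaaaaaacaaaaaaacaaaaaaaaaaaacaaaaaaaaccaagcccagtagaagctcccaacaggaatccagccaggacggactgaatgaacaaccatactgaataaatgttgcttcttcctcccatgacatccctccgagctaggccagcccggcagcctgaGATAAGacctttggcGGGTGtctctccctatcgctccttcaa

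The comparison of genotypes asked whether these genes differed between repaired joints with and without Tenascin C. Of the 8 genes, 6 rose in Tnc-/- past an adjusted p of 0.05 (edgeR quasi-likelihood test, adjusted over all 17791 genes): Ank1, Sptb, Slc4a1, Ermap, Add2 and Rhd. Over all tested genes 10.3% were called higher and 18.7% lower. None of the 8 fell, and none had a negative fold change in DESeq2 or at an unadjusted p under 0.05. The median log2 fold change was 1.28 over the 8 genes and -9.0e-04 over all tested genes. In 7 of the 8 genes, all but Rhag, every Tnc-/- library lay above every wild-type library, as in 17.7% of tested genes (17.4% lay below). The genes were listed with a higher erythroid level in Tnc-/- already known from these libraries, so their direction is no independent evidence of it.

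**Figure D1:**
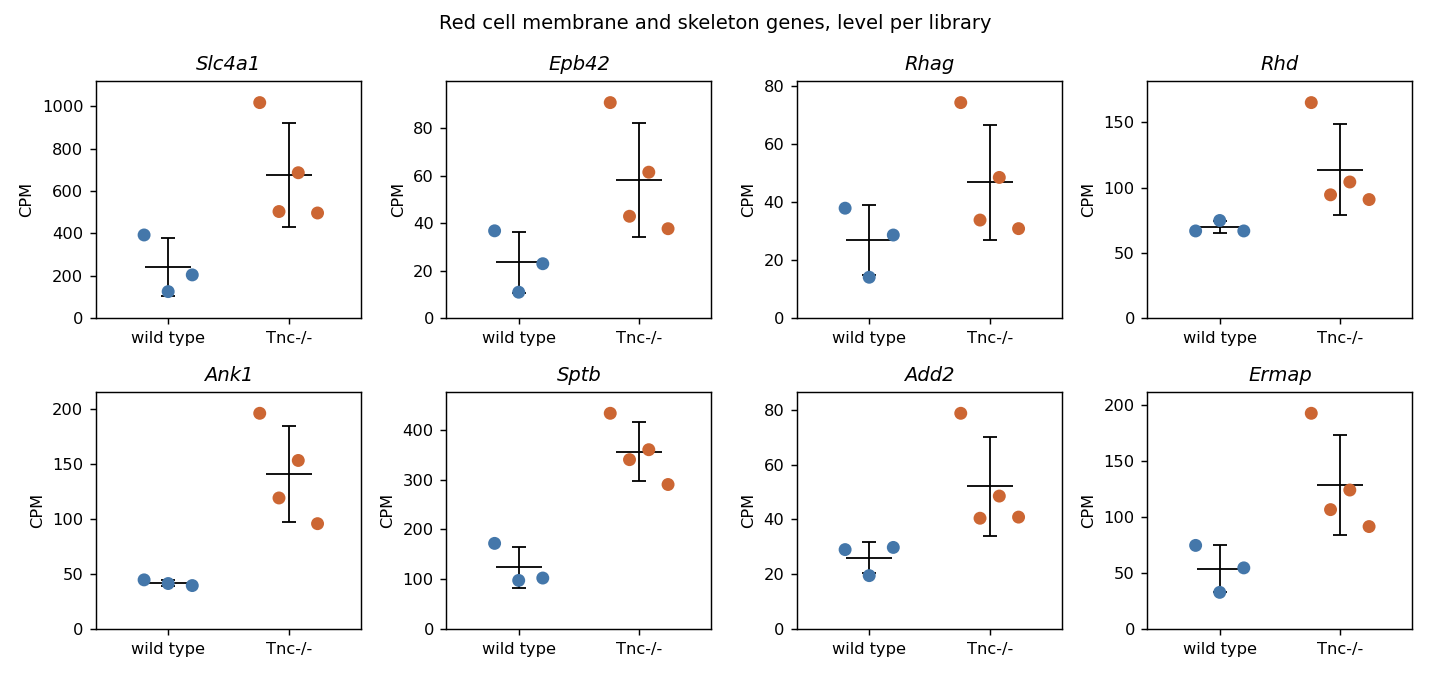
Level of each of the 8 genes in CPM, 1 panel per gene, with each axis starting at 0. Points are libraries (wild type in blue, n = 3; Tnc-/- in orange, n = 4, libraries 1 to 4 from left to right), bars are means and SD. Tnc-/- library 1 is the highest point in every panel, and the groups overlap for Rhag alone.

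Slc4a1 and Epb42 belong to the band 3 complex, the main protein complex of the red cell membrane. Slc4a1 (ENSMUSG00000006574) is band 3 itself, the chloride and bicarbonate exchanger to which ankyrin binds. Wild-type libraries 1 to 3 held it at 393, 125.5 and 204 CPM, and Tnc-/- libraries 1 to 4 at 1017, 503, 686 and 496 CPM. The lowest Tnc-/- library was 1.26 times the highest wild-type library, and wild-type library 1 was 3.13 times library 2. Slc4a1 rose from 241 ± 137 CPM (SD, n = 3) to 676 ± 244 CPM (SD, n = 4), by 1.49 on the log2 scale (SE 0.41; adjusted p = 0.0287, edgeR).

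Epb42 (ENSMUSG00000023216), a protein related to transglutaminases but without their activity, binds band 3 and steadies its tie to ankyrin. Its levels were 36.8, 11.0 and 23.0 CPM in wild type and 90.8, 43.0, 61.5 and 37.7 CPM in Tnc-/-. The groups were only just apart, with the lowest Tnc-/- library 1.02 times the highest wild-type library. The difference was 1.30 on the log2 scale (SE 0.43; adjusted p = 0.0522, edgeR) and missed the threshold; means were 23.6 ± 12.9 CPM (SD, n = 3) and 58.3 ± 24.0 CPM (SD, n = 4).

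The Rh proteins form a second complex, in which the ammonia channel protein Rhag carries the Rh blood group protein Rhd to the surface. Rhag (ENSMUSG00000023926) was at 37.8, 14.1 and 28.6 CPM in wild type and at 74.2, 33.8, 48.4 and 30.8 CPM in Tnc-/-. Tnc-/- libraries 2 and 4 lay below wild-type library 1, so the groups overlapped. The difference was 0.80 on the log2 scale (SE 0.39; adjusted p = 0.154, edgeR) and did not pass the test, with means of 26.9 ± 11.97 CPM (SD, n = 3) and 46.8 ± 19.8 CPM (SD, n = 4).

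Rhd (ENSMUSG00000028825) was nearly level in wild type, at 66.8, 74.8 and 66.8 CPM. In Tnc-/- it was at 165, 94.5, 104 and 90.9 CPM, so library 1 again stood highest and the groups did not overlap. Rhd rose from 69.5 ± 4.62 CPM (SD, n = 3) to 114 ± 34.7 CPM (SD, n = 4), by 0.71 on the log2 scale (SE 0.22; adjusted p = 0.0386, edgeR). This was the smallest fold change of the 8, and Rhd was the 1 gene of the 8 whose level was higher in wild-type library 2 than in library 1. The call was lost under the other scalings as well, with adjusted p (edgeR) of 0.0519 on DESeq2 size factors, 0.0507 on upper quartiles and 0.161 on library totals, where the median of all genes shifted to -0.24. In that order, the log2 fold change of Rhd was 0.67, 0.65 and 0.47. Under these scalings 8.81, 7.58 and 5.35% of tested genes were called higher.

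Ank1, Sptb and Add2 encode the lattice below the membrane. Ank1 (ENSMUSG00000031543) is ankyrin, the link between spectrin and band 3, and has short muscle forms that sit in the sarcoplasmic reticulum. Its wild-type levels of 44.6, 41.3 and 39.4 CPM had the lowest coefficient of variation of the 8 genes, 6.28%, next to 6.65% for Rhd. In Tnc-/- it was at 196, 119, 153 and 95.7 CPM, and the lowest of these was 2.15 times the highest wild-type library. Ank1 rose from 41.8 ± 2.62 CPM (SD, n = 3) to 141 ± 43.6 CPM (SD, n = 4), by 1.76 on the log2 scale (SE 0.24; adjusted p = 0.0067, edgeR).

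Sptb (ENSMUSG00000021061) is the beta chain of red cell spectrin, also made in skeletal muscle. It was at 172, 97.6 and 102 CPM in wild type and at 434, 340.4, 360.4 and 290.4 CPM in Tnc-/-. The groups were separate, the lowest Tnc-/- library being 1.69 times the highest wild-type library. Sptb rose from 124 ± 41.7 CPM (SD, n = 3) to 356 ± 59.4 CPM (SD, n = 4), by 1.52 on the log2 scale (SE 0.24; adjusted p = 0.0068, edgeR). Within Tnc-/- it had the lowest coefficient of variation of the 8 genes, 16.7% against 30.6 to 42.3% for the others.

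Add2 (ENSMUSG00000030000), beta adducin, caps actin filaments and recruits spectrin to them, and is also made in brain. Its levels were 28.98, 19.5 and 29.8 CPM in wild type and 78.8, 40.4, 48.5 and 40.9 CPM in Tnc-/-. All Tnc-/- libraries were higher, the lowest by 1.36 times. Add2 rose from 26.1 ± 5.73 CPM (SD, n = 3) to 52.2 ± 18.1 CPM (SD, n = 4), by 1.0 on the log2 scale (SE 0.27; adjusted p = 0.0267, edgeR). The call was lost with library totals as scaling (edgeR, adjusted p = 0.0726).

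Ermap (ENSMUSG00000028644) encodes a surface protein of the butyrophilin family that carries the Scianna blood group in humans. It was at 74.6, 32.6 and 54.5 CPM in wild type and at 193, 107, 124 and 91.4 CPM in Tnc-/-. The lowest Tnc-/- library was 1.23 times the highest wild-type library. Ermap rose from 53.9 ± 21.0 CPM (SD, n = 3) to 129 ± 44.7 CPM (SD, n = 4), by 1.25 on the log2 scale (SE 0.33; adjusted p = 0.0235, edgeR).

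The calls differed in how far they rested on single libraries. Ank1 and Sptb passed the test in each of the 7 fits that left out 1 library, with adjusted p (edgeR) up to 0.0323 and 0.0353. Slc4a1, Ermap and Add2 lost their calls without wild-type library 2 or 3 or without Tnc-/- library 1 or 3, with adjusted p (edgeR) up to 0.116, 0.0885 and 0.0856. Their log2 fold changes there were 1.18 to 1.48, 0.97 to 1.27 and 0.71 to 1.11, against 1.49, 1.25 and 1.0 with all libraries. Those 4 fits called 5.54, 3.27, 4.82 and 3.91% of tested genes higher. Rhd lost its call in the same 4 fits and without Tnc-/- library 2, with adjusted p (edgeR) up to 0.129. The fits without Tnc-/- library 2 or 4 called 5 and 6 of the 8, and 5.73 and 5.14% of tested genes higher. Without wild-type library 1, all 8 passed the test, at log2 fold changes from 0.78 for Rhd to 2.13 for Slc4a1; 24.3% of the genes tested in that fit were called higher. By tool, 7 of the 8 were called with DESeq2 (12.3% of tested genes higher), 2 with limma voom (4.09%) and none by edgeR with Bonferroni adjustment (0.101%; 7 at an unadjusted p under 0.05), where Ank1 was at an adjusted p of 0.914 (edgeR). With the replicate number as a block, 7 were called and 4.96% of genes were higher.

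Since wild-type libraries 2 and 3 stood apart, the genes were also fitted with wild-type library 1 alone against the 4 Tnc-/- libraries, in which the lone wild-type library is assumed to vary as the Tnc-/- libraries do. There 2 of the 8 genes stayed past the threshold, Ank1 at 1.66 and Sptb at 1.05 on the log2 scale, where 2.53% of tested genes were called higher. The log2 fold change of Slc4a1 moved from 1.49 to 0.78, of Ermap from 1.25 to 0.78, of Epb42 from 1.30 to 0.66 and of Rhag from 0.80 to 0.30. Those of Rhd (0.76) and Add2 (0.85) moved less. With the log2 level of the receptor genes as a covariate edgeR called none of the 8 (3 of them were at an unadjusted p under 0.05), against 1.17% of all genes called higher. This covariate was higher in each wild-type library (85.6 to 1302 CPM) than in any Tnc-/- library (36.0 to 43.5 CPM). The fit can thus separate it from genotype only poorly, and a lost call cannot be assigned to either. The SE of Ank1 was 0.41, against 0.24 without the covariate. Ank1 was nearest to the threshold, at 1.67 (SE 0.41, adjusted p = 0.0547, edgeR), followed by Sptb at 0.86 (adjusted p = 0.13, edgeR). Slc4a1 was at 0.41 and Rhag at 0.039, while Epb42, Ermap, Add2 and Rhd were at 0.31, 0.55, 0.77 and 0.84. The part of the receptor-gene signal in the differences between genotypes was not tested further.

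**Figure D2:**
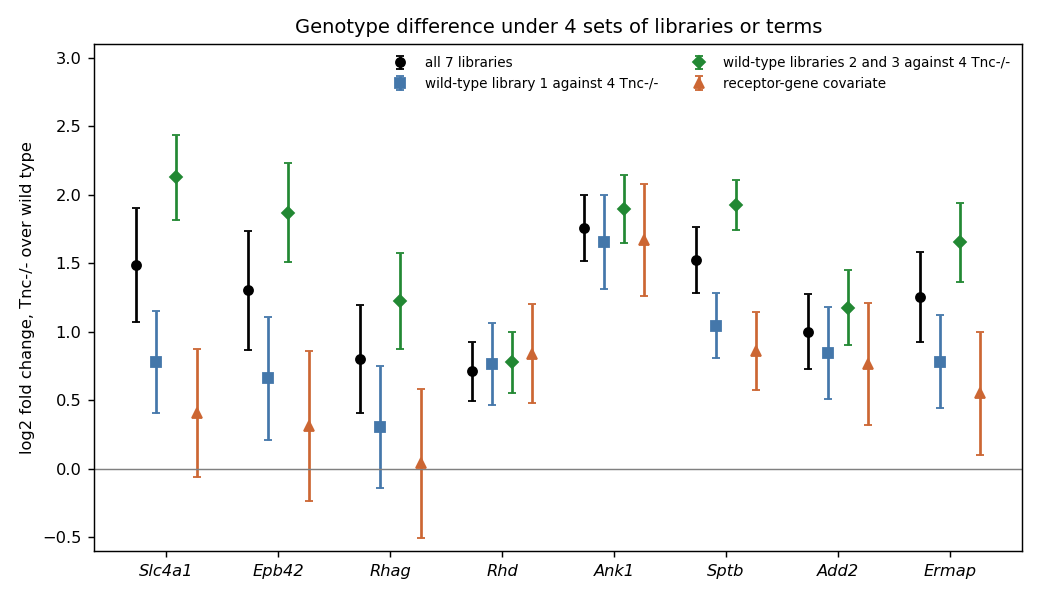
Log2 fold change of each gene, Tnc-/- over wild type, in 4 fits: all 7 libraries, wild-type library 1 against all 4 Tnc-/- libraries, wild-type libraries 2 and 3 against them, and all libraries with the receptor-gene level as a covariate. Error bars are standard errors of edgeR fits; Ank1, Rhd and Add2 stay close across the first and second fits, whereas Slc4a1 falls from 1.49 to 0.78.

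Gene span, the distance from a gene's first to its last base, was given for each gene by GENCODE M21. Genes spanning over 90 kb mostly went the other way: 93.3% of their calls were lower in Tnc-/-, with a median log2 fold change of -0.89 over 2910 such genes, against 51.4% lower calls and a median of 0.10 for shorter genes. Ank1, Sptb and Add2 span 176, 130.1 and 95.7 kb and were all called higher, as were 105 of the 1563 called genes over that length. The other members span 14.6 to 31.6 kb.

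Levels were compared between the genes only per kilobase of exon (GENCODE M21, all exons of a gene merged). Slc4a1 had the highest mean in both genotypes, at 49.2 ± 28.1 CPM per kb in wild type (SD, n = 3) and 138 ± 49.9 in Tnc-/- (SD, n = 4). Rhd followed, at 43.6 ± 2.90 and 71.3 ± 21.8 CPM per kb, within the spread of Slc4a1 in wild type. Next came Sptb, Ermap and Rhag, at 10.2, 10.2 and 11.5 CPM per kb in wild type and 29.3, 24.3 and 20.0 in Tnc-/-, not separated from each other beyond their SD in wild type, where the SD was 3.43 to 5.12. Epb42, Ank1 and Add2 were lowest, at 4.35, 3.09 and 2.57 CPM per kb in wild type and 10.8, 10.4 and 5.14 in Tnc-/-. Epb42 and Ank1 did not differ beyond their SD in either genotype. Merged exons overstate the transcript length of genes with many alternative exons, such as Ank1.

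Each of the 8 genes was highest in Tnc-/- library 1, at 1.27 (Sptb) to 2.197 (Rhag) times the median of the other Tnc-/- libraries. In Tnc-/-, library 3 was second for every gene. In wild type, Slc4a1, Epb42, Rhag, Ermap and Sptb were highest in library 1 and lowest in library 2, with a ratio of 1.76 (Sptb) to 3.36 (Epb42). Add2 was also lowest in library 2 but highest in library 3. Ank1 and Rhd varied by only 1.13 and 1.12 times among the wild-type libraries, and Rhd was highest in library 2. The closest pair was Slc4a1 and Epb42, whose log2 profiles, each centred on its mean over the 7 libraries, differed by a root mean square of 0.16. The most distant pair was Slc4a1 and Rhd, at 0.67.

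Other cells of the joint could hold some of these transcripts, so lists of marker genes were read alongside. Of 14 erythroid markers, 13 were found and 12 tested. Of the 12, 9 rose and all had a log2 fold change above 0, with a median of 1.32. The 13 summed to 343 to 802 CPM in wild type and 945 to 1749 CPM in Tnc-/-. Alas2, the first enzyme of haem synthesis in red cells, was listed at 0 in all 7 libraries although the other erythroid markers were present, so its row says nothing about erythroid cells. Marrow myeloid markers (8 genes) summed to 1324 to 2849 CPM in wild type and 3168 to 5570 CPM in Tnc-/-, and 4 of 8 rose. Platelet markers summed to 220 to 474 and 506 to 890 CPM, and 4 of 5 tested rose. Skeletal muscle markers summed to 27912 to 38382 CPM in wild type and 41003 to 61368 CPM in Tnc-/-, and 3 of 12, Myh4, Ryr1 and Actn3, rose. None of the 12 was at 0. All tested myeloid, platelet and muscle markers also had a log2 fold change above 0, with medians of 1.07, 1.15 and 0.65. In the nerve and tendon lists 4 of 7 and 3 of 4 did, with medians of 0.056 and 0.040. Nerve and Schwann cell markers, relevant to Add2 and Ank1, summed to 149 to 179.5 and 153 to 172 CPM; of 7 tested 1 rose and 1 fell, and Nefl was at 0 in all 7 libraries. The sum also holds Elavl4 and Snap25, which did not pass the filter on low counts. Elavl4 was at 0.483, 38.1 and 19.3 CPM in wild type and at 0 in all Tnc-/- libraries, and Snap25 at 0.268, 7.97 and 2.86 CPM and at 0 to 0.224 CPM, both higher in the wild-type libraries with the high receptor-gene level. The tendon list summed to 2676 to 3402 and 2615 to 4455 CPM, with Scx at 0 in all 7; of 4 tested 0 rose and 1 fell, Mkx, by 0.92 on the log2 scale (edgeR, adjusted p = 0.0379). The part of muscle, myeloid and platelet cells in the members' differences was not tested.

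**Figure D3:**
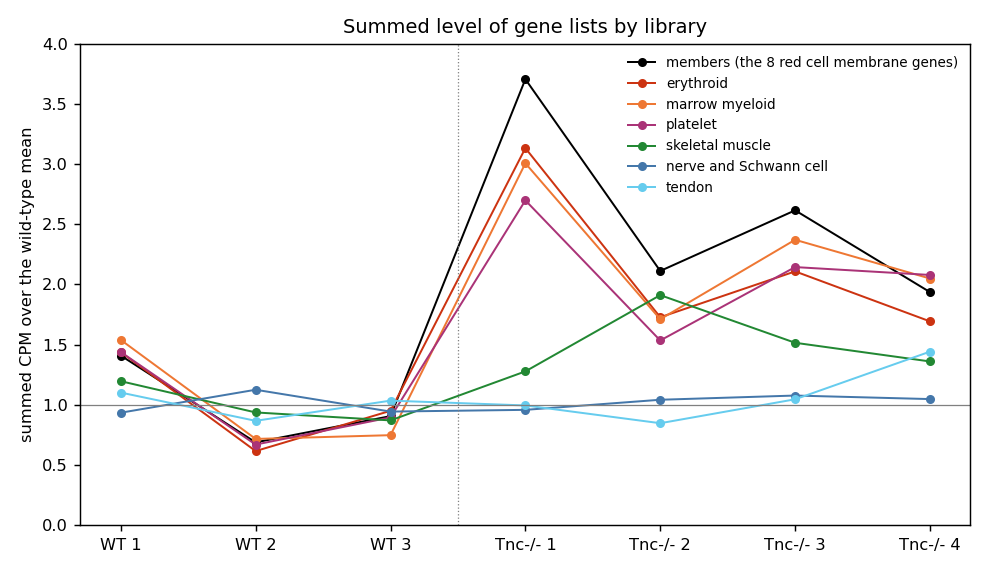
Summed CPM of the 8 red cell membrane genes and of 6 marker lists in each library, divided by the mean of the 3 wild-type libraries. The 8 genes, erythroid, marrow myeloid and platelet lists peak in Tnc-/- library 1, the skeletal muscle list in Tnc-/- library 2, and the nerve list stays near 1.

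The level of each gene was then set against the erythroid list in the same library, as its log2 CPM minus the mean log2 CPM of the 12 tested markers. The list itself was higher in Tnc-/- by 1.28 log2 units (SD 0.61 in wild type, n = 3, and 0.43 in Tnc-/-, n = 4). Set against it, the mean difference between genotypes was -0.0083 for Ermap, 0.10 for Epb42, 0.27 for Sptb, 0.30 for Slc4a1 and 0.42 for Ank1. It was -0.32 for Add2, -0.46 for Rhag and -0.62 for Rhd. These are differences of means, with no test. The groups overlapped in 6 of the 8. All Tnc-/- libraries were above all wild-type libraries for Slc4a1, as in 0.601% of tested genes, and below them for Rhag, as in 57.8%. With the median of the markers in place of their mean, the list itself was higher by 1.43 log2 units and each difference was lower by the same shift. The Slc4a1 groups then overlapped, at a difference of 0.15, and the differences were -0.16 for Ermap, -0.05 for Epb42, 0.12 for Sptb and 0.27 for Ank1. Those of Add2, Rhag and Rhd were -0.47, -0.61 and -0.77.

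The spread over the 7 libraries was compared before and after each marker list was subtracted, as a description with no test. For Ermap the SD over all 7 libraries was 0.83 log2 units by itself and 0.11 relative to the list. For Slc4a1 it went from 1.03 to 0.21, for Epb42 from 0.98 to 0.23 and for Sptb from 0.89 to 0.26. Rhd was the exception, at 0.46 by itself and 0.52 relative to the list. The marrow myeloid and platelet lists also left a lower spread than each gene had by itself, again except for Rhd, so a low SD is not particular to the erythroid list. For Sptb it was 0.29 relative to the myeloid and 0.30 relative to the platelet list, for Slc4a1 0.34 and 0.29, for Ank1 0.49 and 0.48, and for Ermap 0.30 and 0.26. For Rhd it was 0.51 and 0.55. Relative to the skeletal muscle list the SD was larger than relative to these 3 lists for every gene but Rhd, from 0.54 for Add2 to 0.77 for Epb42. It was still below the SD of each gene by itself, again except for Rhd. For Sptb it was 0.55, against 0.89 by itself. For Ank1 it was 0.69, against 0.97 by itself and 0.41 relative to the erythroid list. Ank1 and Sptb were higher in all Tnc-/- than in all wild-type libraries also relative to the muscle list, by 1.004 and 0.857 log2 units, as were 1.25% of tested genes. Relative to the myeloid list the groups overlapped for Ank1, at a difference of 0.54, and were separate for Sptb, at 0.40, as in 0.776% of tested genes. Relative to the platelet list they overlapped for both, at 0.44 and 0.29. Rhd was furthest from the erythroid list in wild-type library 2, where it lay 1.02 log2 units above its own mean relative level.

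**Figure D4:**
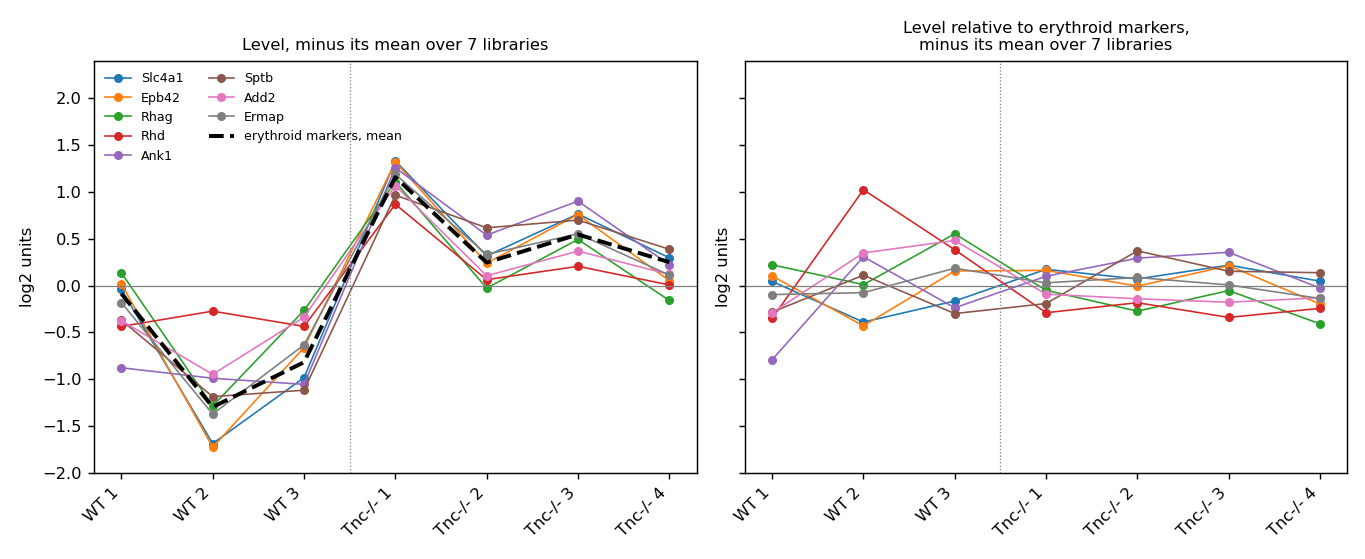
Left, log2 level of each gene in each library minus its mean over the 7 libraries, with the mean of 12 erythroid markers as a dashed line. Right, the same after subtracting the erythroid markers: the spread shrinks for Ermap (SD 0.83 to 0.11) and Slc4a1 (1.03 to 0.21), and Rhd stands 1.02 above its mean in wild-type library 2.

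The genes whose profiles lay nearest to each member were sought among 14230 tested genes at a mean level of 1 CPM or more, by the root mean square difference of centred log2 profiles over the 7 libraries. For Slc4a1 they included Cldn13 (0.073) and Trim10 (0.12). For Epb42 they were Btnl10 (0.082), Ctse (0.088) and Tal1 (0.15), and for Rhag Hemgn (0.13), Ccnb1 (0.14) and Tent5c (0.15). Cldn13, Trim10 and Hemgn are on the erythroid list. For Ermap they were Nek2 (0.072), Pigq (0.11) and Slc43a1 (0.12), and for Add2 Dlgap5 (0.099), Smim24 (0.11) and the erythroid factor Gata1 (0.12). For Rhd they were Chaf1a (0.064), Cnbd2 (0.069) and Dmtn (0.084), the last a protein of the red cell skeleton. Ank1 was nearest to Mir142hg (0.12), Nbeal2 (0.15) and Cldn15 (0.16), and Sptb to Adar (0.11), Setd1a (0.12) and Akna (0.12). No marker of the skeletal muscle, marrow myeloid, platelet, nerve or tendon lists was among the 24, which are few beside the 14230 genes searched.

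Other genes of the membrane skeleton and surface were read from the same fit. Of 10 genes for skeleton proteins and their linkers, 4 rose (Epb41, Tln1, Dmtn and Add1), 0 fell (0 also at an unadjusted p under 0.05 or in DESeq2), and 6 did not pass the test; the median log2 fold change was 0.49. Tln1, which ties integrins to actin and is not specific to red cells, was at 424, 212 and 267 CPM in wild type and at 829, 575, 725 and 716 CPM in Tnc-/- (log2 fold change 1.24, SE 0.26; edgeR, adjusted p = 0.0105). Epb41, which joins spectrin to actin, rose from 129 ± 36.6 CPM (SD, n = 3) to 290 ± 71.5 CPM (SD, n = 4), by 1.17 (SE 0.25; adjusted p = 0.0115, edgeR).

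Of 16 other red cell membrane and surface proteins, 14 were tested, and Icam4 and Abcb6 were listed at 0 in all 7 libraries. Among the 14, 3 rose (Piezo1, Kcnn4 and Stom), 0 fell by the same 3 measures, and the median was 0.64. Piezo1, a stretch-gated ion channel, rose from 81.5 ± 8.47 CPM (SD, n = 3) to 173 ± 18.1 CPM (SD, n = 4), by 1.09 (SE 0.14; adjusted p = 0.0067, edgeR). Kcnn4, a calcium-gated potassium channel of the red cell, rose from 36.5 ± 4.27 to 66.1 ± 14.2 CPM, by 0.86 (SE 0.18; adjusted p = 0.011, edgeR).

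Relatives of the 8 genes that work mainly outside red cells served as a contrast. Of 12, 11 were found and 10 tested: 1 rose, 3 fell and 6 did not pass the test, with a median of -1.24. Slc4a2, an anion exchanger of many tissues, rose from 34.3 ± 1.14 CPM (SD, n = 3) to 55.1 ± 4.79 CPM (SD, n = 4), by 0.68 (SE 0.12; adjusted p = 0.00799, edgeR). Sptbn4, a spectrin of neurons, was at 0.537, 36.8 and 27.9 CPM in wild type and at 0.111 to 1.01 CPM in Tnc-/- (log2 fold change -5.62, SE 1.24; edgeR, adjusted p = 0.0133). Its wild-type level came from libraries 2 and 3, those with the high receptor-gene level, and wild-type library 1 lay within the range of Tnc-/-. The ankyrins Ank2 and Ank3 fell too, by 0.99 and 1.49 on the log2 scale, with overlapping groups. For both, too, the higher wild-type levels were those of libraries 2 and 3. Ank2 was at 75.4, 169 and 146 CPM in wild type and at 52.0 to 79.8 CPM in Tnc-/-, and Ank3 at 55.1, 236 and 168 CPM and at 44.5 to 74.7 CPM, so wild-type library 1 lay within the range of Tnc-/-.

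In GENCODE M21 the exons of Ank1 and Add2 overlap the antisense genes Gm15816 and Gm44089, over 6.37% and 3.51% of their length, and those of Sptb meet Plekhg3 at 1 base. Both antisense genes had 0 counts in all 7 libraries. The strand setting of the counting is not given in the sources used here, so reads from these stretches cannot be assigned to a strand. The exons of the other 5 genes overlap no annotated gene in that release.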

How the data were processed

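Whole shoulder joints of 7 mice were sequenced. The authors deposited 1 file of raw counts for each library; HISAT2 2.2.1, HTSeq 2.0.2, DESeq2 1.38.3, FastQC 0.11.9 and build GRCm39 are named in the submitters' processing notes. The annotation release is not given in the sources used here. Rows that name no gene, listed for Tnc-/- alone, held 30.1 to 32.7% of reads and were left out. Tests used the 56854 identifiers in all files (126 were in wild-type files alone, 87 in Tnc-/- files alone). No column was left unmapped (0).

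The 17791 genes that passed filterByExpr entered edgeR 4.0.16 under R 4.3.3 (TMM scaling, robust quasi-likelihood F test, genotype as the 1 term), with Benjamini-Hochberg adjustment and a threshold of 0.05. Standard errors are log2 fold changes over the root of their F statistic. Log2 levels used a prior count of 0.5. Alternatives were DESeq2 1.42.0, limma 3.58.1 voom, Bonferroni adjustment, other scalings and filters, leaving out libraries, a receptor-gene covariate and the replicate number as a block.

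The 8 genes, the marker lists and the rule for named genes (the 3 nearest genes to each member; the 2 smallest p in each list of other membrane genes and relatives) were chosen with earlier results of these data known. Actn3, Add1, Dmtn, Stom, Ank2, Ank3, Myh4, Ryr1, Elavl4, Snap25, Mkx and the markers at 0 were named after their values were seen. Some genes that these rules cover are not reported here by name, though they stay in the counts and medians of their lists. The spans and exon lengths come from GENCODE M21 on GRCm38, another build than the authors', and serve as lengths only.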

Additional observations from a re-analysis of the deposited data

How the results depend on the processing

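All 8 genes stayed above 0 in each of 18 alternatives. Ank1 and Sptb were called in 16 of them, Slc4a1 and Ermap in 10, Add2 in 9, Rhd in 4, Epb42 in 3 and Rhag in 2. The reported fit called 6 of the 8, 7 of 24 other red cell membrane genes and 5159 of all genes. With limma voom these counts were 2, 4 and 1004. With Bonferroni adjustment they were 0, 0 and 22. With the receptor-gene covariate they were 0, 0 and 442. With wild-type library 1 alone against Tnc-/- they were 2, 1 and 825. Library totals gave 4 of the other red cell membrane genes. Over the fits that left out 1 library, the counts ran from 2 to 8, from 1 to 19 and from 2229 to 14113; without wild-type library 1 there were 8, 19 and 14113, and without wild-type library 3 there were 2, 1 and 2229. DESeq2 called 7 of the 8. The log2 fold change of Tnc lay between -3.58 and -2.80 and kept its call in each alternative. With the replicate number as a block, 7 of the 8 were called (Epb42 and Rhag added, Rhd lost) and 1932 of all genes. The sample labels give no pairing by these numbers. Correlations across genes of same-numbered deviations from the group means were -0.042, 0.054 and -0.018. Wild-type libraries 2 and 3 stood apart from library 1, so these values cannot decide whether samples were paired. Causes of these changes were not tested. The count of 3 against 4 mice limits the precision, and the lowest level among the 8 genes, 11.0 CPM for Epb42, stands on 165 counts.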
